A study of Arabidopsis thaliana with 16 samples.

Results

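Guard mother cells (GMCs) were profiled here in 3 of the 16 ATAC-seq libraries of a study of the stomatal lineage of Arabidopsis thaliana. The GMC libraries, replicates 1 to 3, were taken by their label and set against the mean of the 4 other state means, which came from 13 libraries. ATAC-seq counts where the transposase Tn5 can cut DNA in chromatin, and each cut on a transposase hypersensitive site (THS) is called a cutcount. All 65351 THSs of the deposited table were read, and the 2 that overlap the 3000 bp upstream of FAMA were kept apart.

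All libraries came from whole 3-day-old Col-0 seedlings grown under continuous light, which carried a pair of transgenes. The first, ACT2pro:BirA, is present in every line and expresses a biotin ligase throughout the plant. The second is a nuclear tagging fusion (NTF), made of the nuclear-envelope WPP domain, red fluorescent protein and a biotin acceptor peptide, and its promoter differs between lines. In the GMC line FAMApro drives the NTF, and the study describes the captured nuclei as GMCs on the way to guard cells. The AtML1 promoter marks the protoderm (Proto, 3 libraries), SPCH marks meristemoid mother cells and early meristemoids (MMC, 3 libraries), MUTE marks late meristemoids (M, 4 libraries) and GC1 marks mature guard cells (GC, 3 libraries). Each line is a selected transformant crossed to the BirA line, so state and line cannot be told apart. Each line also carries an additional copy of its own driver promoter, and any cutcounts from that copy would map to the endogenous promoter. Tagged nuclei were pulled down in bulk, so fewer nuclei with an open site and less opening in each nucleus cannot be told apart. The labels do not say whether replicates came from separate cultures, and the study calls them biological replicates. The p-values below measure the spread between these libraries only.

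A GMC arises when a meristemoid ends its asymmetric divisions, and it divides once, symmetrically, into the pair of guard cells that surround the stomatal pore. The bHLH protein MUTE drives the step into the GMC, and FAMA, with its partners SCRM and SCRM2, ends the division and starts guard cell differentiation. The MYB proteins FLP and MYB88 also restrict this division, whereas CDKB1 kinases and A2-type cyclins promote it.

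The results turn on 4 THSs, and 3 of them short enough to show are given here as reference sequence. Shown are the distal THS upstream of FAMA, which stood highest in GMC, and the 2 THSs that passed the test as lower in GMC. They were read from the RefSeq copy of TAIR10 on the + strand, 5′ to 3′, with words of the GATA motif, which the study names for the late states, in capitals (GATA with A or T before it and A or G after it, on either strand). For THS_21012, whose first 76 bases are transcribed, only the part upstream of the gene start is printed.
THS_33855, chr3:8720376-8720532: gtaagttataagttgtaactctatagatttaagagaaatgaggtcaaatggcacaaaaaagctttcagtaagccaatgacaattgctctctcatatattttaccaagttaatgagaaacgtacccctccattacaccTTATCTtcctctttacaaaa
THS_21012, chr2:9699945-9700106: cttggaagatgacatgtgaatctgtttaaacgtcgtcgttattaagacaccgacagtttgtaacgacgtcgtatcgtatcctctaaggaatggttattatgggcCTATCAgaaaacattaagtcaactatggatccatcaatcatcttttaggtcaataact
THS_36023, chr3:16584142-16584441: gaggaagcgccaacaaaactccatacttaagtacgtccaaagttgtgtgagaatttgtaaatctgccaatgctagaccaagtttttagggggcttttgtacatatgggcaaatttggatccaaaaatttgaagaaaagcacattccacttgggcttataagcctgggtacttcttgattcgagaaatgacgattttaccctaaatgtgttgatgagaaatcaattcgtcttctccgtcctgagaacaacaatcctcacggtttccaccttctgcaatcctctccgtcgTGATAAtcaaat
Each of the 3 printed stretches holds 1 GATA word. Neither the GA repeat GAGAGAGA nor CACGTG, a form of the E-box that bHLH proteins bind, occurs in them. Among all THSs outside FAMA, 50.9% hold a GATA word somewhere in their length.

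Depth did not single out the GMC libraries. Cutcounts on THSs were 5015251, 7593630 and 5983466 in GMC replicates 1 to 3, and the 16 libraries ran from 3412226 to 13596509, both of M. Values below are cutcounts divided by 1 size factor per library (scaled cutcounts). The median SD between libraries of a state, on the log2 scale, was 0.22 in GMC, 0.23 in GC, 0.24 in Proto, 0.37 in MMC and 0.43 in M. Replicates thus agreed most closely in GMC and least in the SPCH and MUTE lines. M replicate 1 lay near the GMC and GC libraries by the shares given below, and M replicate 3 stood above the other M libraries at the FAMA and GC1 promoters, so counts of calls are also given without libraries that change them.

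The FAMA promoter was the place where GMC stood highest above the other states. THS_33854 (chr3:8717797-8720014, 2218 bp) spans the start of FAMA and an overlapping long noncoding RNA, AT3G04625. Its scaled cutcounts were 3460, 3764 and 3712 in GMC. In the other states 12 libraries ran from 213 to 415, and M replicate 3 reached 758. All GMC libraries lay above all others, and the mean of GMC was 10.02 times that of the 4 other states. The log2 difference was 3.37 (SE 0.24, adjusted p = 8.6e-10 with limma). Against GC alone it was 3.25 (SE 0.30, adjusted p = 7.7e-07 with limma).

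THS_33855 (157 bp, printed above) lies between genes, with its midpoint 2243 bp upstream of the FAMA start. It held 208, 229 and 204 scaled cutcounts in GMC. The other 12 libraries without M replicate 3 held 4.67 to 29.8, and M replicate 3 held 36.8. GMC and the other states did not overlap, with a ratio of means of 10.6 and a log2 difference of 3.49 (SE 0.35, limma adjusted p = 8.7e-06). The difference from GC was 3.11 (SE 0.45, limma adjusted p = 0.0048). Both FAMA THSs passed in 30 of 30 alternative settings against the 4 states. Against GC, THS_33854 passed in 28 of 30 and THS_33855 in 23 of 30. How much of either value came from the FAMApro copy of the transgene was not tested, so the FAMA promoter cannot serve as a check of the GMC label.

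Outside FAMA, 65349 THSs were tested with limma on log2(scaled cutcount + 1), with p-values adjusted over all of them by the Benjamini-Hochberg method. At an adjusted p under 0.05, 0 THSs were higher in GMC than in the mean of the 4 other states (0%) and 2 were lower (0.00306%). At an unadjusted p under 0.05, 6735 were higher (10.3%) and 9537 were lower (14.6%). With edgeR on the recovered cutcounts, a test added after seeing the data, 0 were higher and 2 were lower. The smallest adjusted p among higher THSs was 0.0994. Under an adjusted p of 0.1 there were 81 higher and 560 lower THSs, and under 0.15 there were 3285 and 6125.

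These counts depended on single libraries of the other states. Without M replicate 1, 2832 THSs passed as higher (4.33%) and 7783 as lower (11.9%), and without MMC replicate 2, 2155 (3.3%) and 2452 (3.75%) passed. With quantile normalization 1654 (2.53%) and 2194 (3.36%) did. Without MMC replicate 3 the counts were 0 and 4, and without M replicate 4 they were 0 and 5. Leaving out any 1 of the 12 other libraries left 0 higher and 1 to 2 lower.

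**Figure D1:**
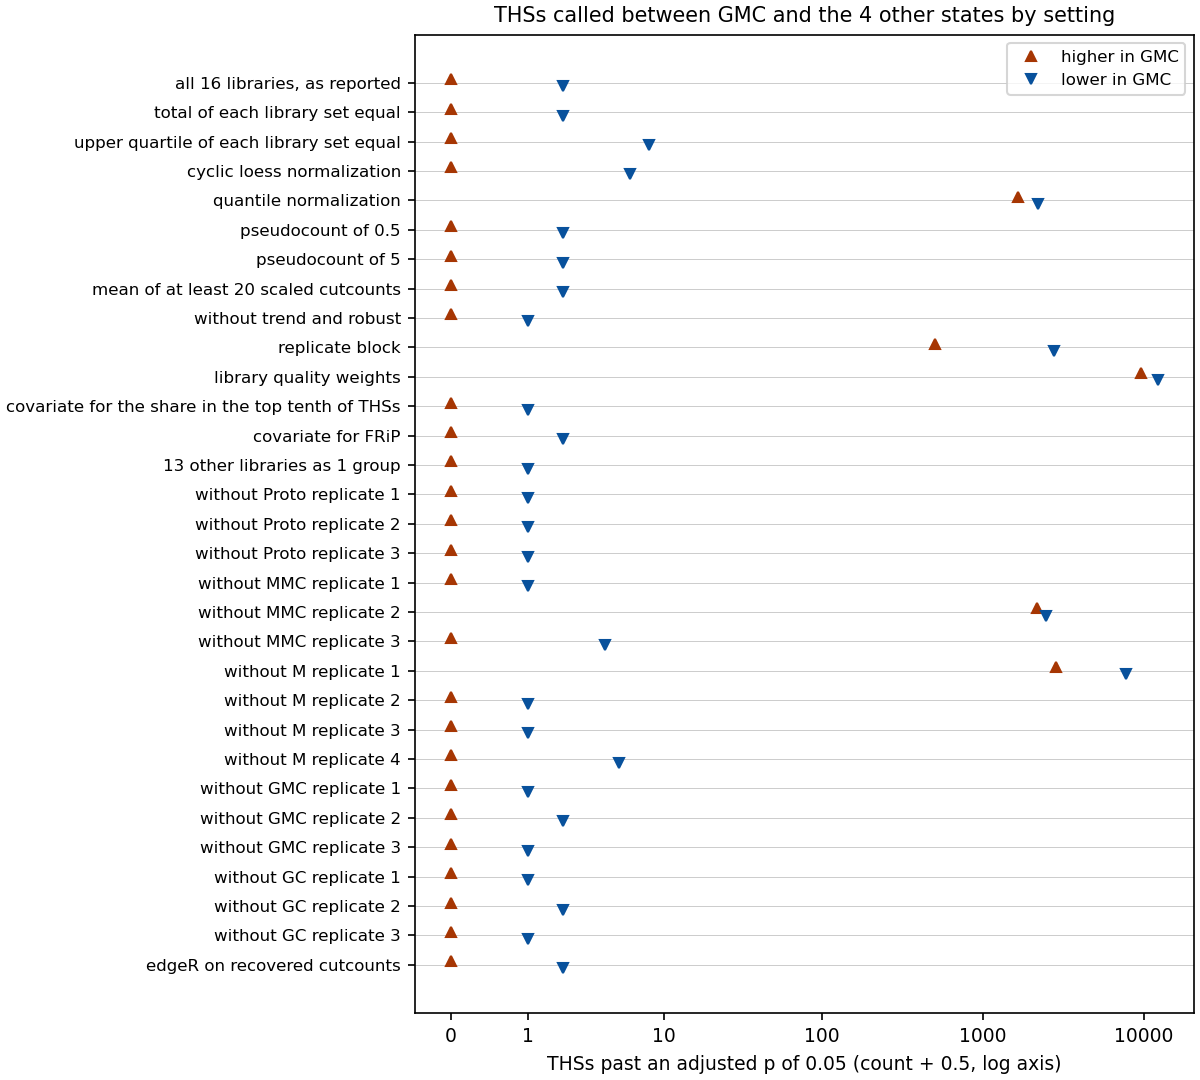
Number of THSs outside FAMA past an adjusted p of 0.05 as higher (up triangles) or lower (down triangles) in GMC than in the 4 other states, on a log axis, for the fit reported and 30 alternatives. Most settings gave 0 higher and 1 to 8 lower, while quantile normalization, the replicate block, library quality weights and leaving out M replicate 1 or MMC replicate 2 gave 503 or more in each direction.

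THS_21012 had the largest difference outside FAMA (238 bp, chr2:9699869-9700106). Its midpoint lies 43 bp upstream of the start of AT2G22795, and it reaches into the transcribed part of that gene. GMC replicates 1 to 3 held 18.5, 23.0 and 9.17 scaled cutcounts. The 13 other libraries ran from 114 to 384, with a median of 210, and the lowest of them was M replicate 1. No GMC library came near any other library, and the GMC mean was 16.9 ± 7.05 (SD, n = 3). Proto stood at 216 ± 26.9 (SD, n = 3), M at 267 ± 115 (SD, n = 4), MMC at 253 ± 88.6 (SD, n = 3) and GC at 189.9 ± 30.8 (SD, n = 3). The log2 difference from the 4 states was -3.73 (SE 0.28, limma adjusted p = 6.7e-08). Against GC it was -3.49 (SE 0.36, limma adjusted p = 3.0e-05). It passed in 30 of 30 alternatives in both comparisons, with log2 differences from -4.01 to -3.32 against the 4 states.

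The low value of THS_21012 did not extend to its nearest neighbours in the table. THS_21011, 746 bp away in a coding exon of AT2G22795, held 209, 190 and 147 scaled cutcounts in GMC and 31.1 to 189 in the others (log2 difference 0.63, limma adjusted p = 0.19). THS_21013, 1755 bp away between genes, held 134, 87.8 and 112 in GMC and 94.3 to 131 in the others (log2 difference -0.03, limma adjusted p = 0.92). GMC thus overlapped the other libraries at both neighbours. Whether the GMC line differs from the others in the DNA of this site was not tested.

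THS_36023 (300 bp, chr3:16584142-16584441) was the other THS that passed. It lies inside the pseudogene AT3G45250, and the nearest protein-coding start, of AT3G45252, is 1757 bp from its midpoint. Its scaled cutcounts were 76.3, 53.4 and 64.2 in GMC. The other libraries ran from 87.7 in GC replicate 2 to 309 in M replicate 4, with a median of 181. GMC lay below all 13, by a narrower margin than at THS_21012. The log2 difference was -1.47 (SE 0.25, limma adjusted p = 0.038), and it passed in 16 of 30 alternatives, with adjusted p up to 0.418. Against GC the difference was -1.05 (SE 0.31, limma adjusted p = 1) and did not pass. Its neighbours THS_36022 and THS_36024, 3090 bp and 380 bp away, had log2 differences of 0.80 and -0.15 and passed no test.

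**Figure D2:**
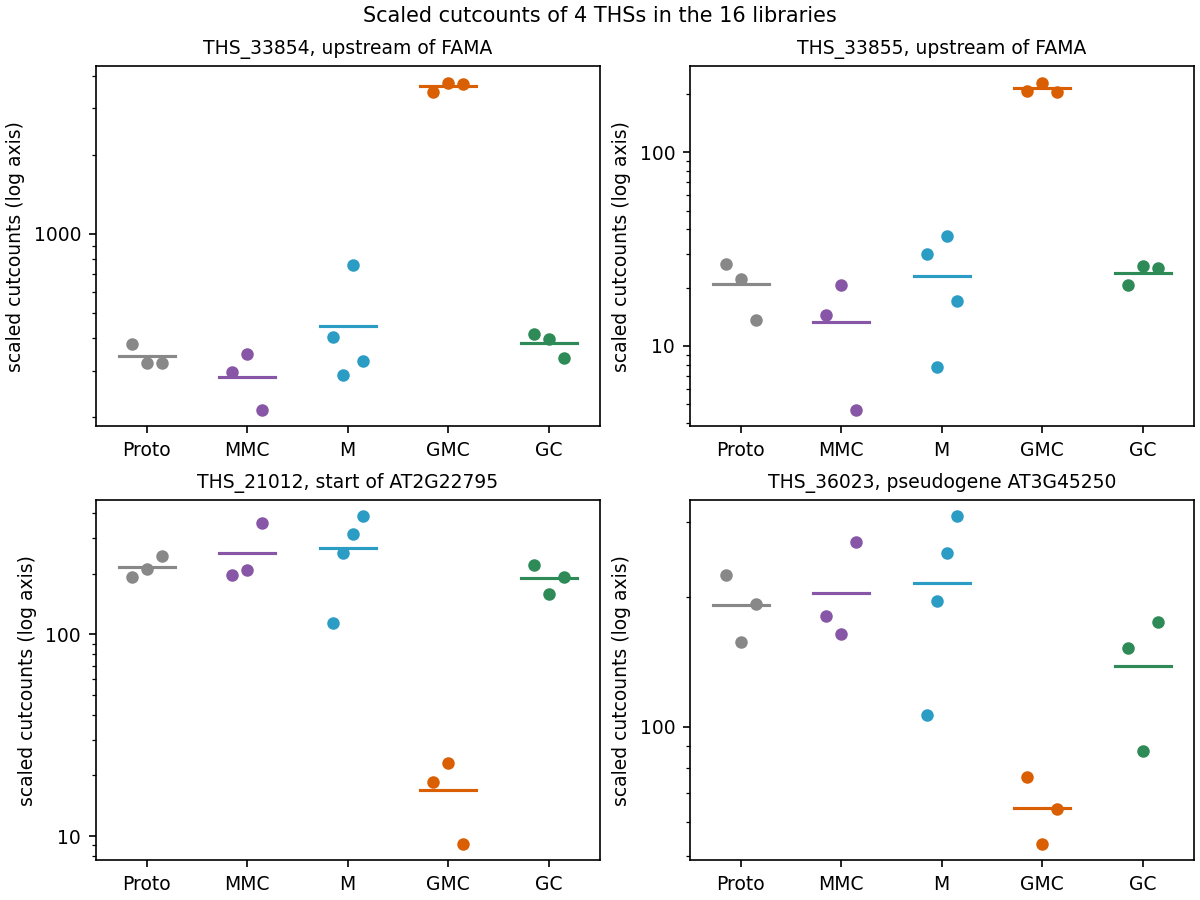
Scaled cutcounts (log axes) of 4 THSs in each library, with dots for libraries and bars for state means. The 3 GMC libraries lie at 3460 to 3764 and 204 to 229 at the 2 THSs upstream of FAMA, above all others, and at 9.17 to 23.0 in THS_21012 and 53.4 to 76.3 in THS_36023, below all others.

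Since no THS passed as higher, the 6 with the smallest p are given by rule, and none of them passed. All had an adjusted p of 0.0994 with limma and passed in 5 of 30 alternatives. THS_14956 lies in a coding exon of MLP34, a gene of the major latex protein-like family. It held 98.5, 69.8 and 67.2 scaled cutcounts in GMC and 12.4 to 52.2 in the others (log2 difference 1.25, SE 0.27). THS_29643, in a coding exon of AT3G07090, held 57.9, 70.6 and 56.0 in GMC and 14.4 to 41.0 in the others (1.099, SE 0.25). GMC lay above every other library at both sites. THS_41593 (1.13), THS_24836 (1.06), THS_10824 (1.06) and THS_58979 (1.02) completed the 6. THS_58979 lies in a coding exon of CYP706A3, which encodes a cytochrome P450, and held 139, 98.5 and 105 in GMC against 28.0 to 100.2 elsewhere, so that the groups overlapped slightly. Of these 6, 4 lie in coding exons and 2 in pseudogenes.

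Compared with GC alone, the state that follows it in the lineage, GMC differed at few THSs. With limma 0 were higher (0%) and 3 were lower (0.00459%) at an adjusted p under 0.05, and 569 (0.871%) and 665 (1.02%) at an unadjusted p under 0.05. With edgeR 0 were higher and 3 were lower. The 3 lower THSs were THS_21012 and a pair at the GC1 promoter, THS_05423 and THS_05424. THS_05423 held 81.2, 98.5 and 72.3 scaled cutcounts in GMC and 357, 336 and 347 in GC (log2 difference -2.04, SE 0.24). THS_05424 held 107, 112 and 127 in GMC and 431, 354 and 354 in GC (-1.71, SE 0.28). GC lay above every library of the other states at both, and the GC line carries an extra copy of this promoter. THS_21012 and THS_05423 passed against GC in 30 of 30 alternatives. THS_05424 passed in 20 of 30 and not when any 1 GMC or GC library was left out, with limma adjusted p from 0.117 to 0.442 in those 6 fits. When only GMC and GC entered the fit, 7 THSs were higher and 67 were lower.

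The libraries were also compared THS by THS without a model. In 733 THSs outside FAMA (1.12%) all 3 GMC libraries lay above the 13 others, and in 1216 (1.86%) all 3 lay below. With the promoter THSs of all driver genes left out, the same count gave 733 above and 1215 below for GMC. It gave 202 and 115 for GC, 76 and 120 for Proto, and 48 and 94 for MMC. M, which has 4 libraries and so a stricter count, had 43 and 42.

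The THSs with GMC above and those with GMC below differed in kind. Those above had a median mean of 39.8 scaled cutcounts, a median length of 177 bp and a median GC content of 39.9%. Those below had 157 scaled cutcounts, 320 bp and 35.3%. All THSs had 53.9, 230 bp and 34.7%, so the first were weaker, shorter and richer in GC than usual and the second stronger and longer. Both sets were taken from the scaled cutcounts and were not taken again under another scaling. In those values weak THSs stood mostly higher in GMC and strong ones mostly lower, a trend lost with cyclic loess and quantile normalization (below). Of those above, 38.3% had their midpoint in a coding exon and 9.96% in the 400 bp upstream of a gene start. Of those below, 3.29% lay in a coding exon and 37.5% upstream. Over all THSs the shares were 15.8% and 22.7%. Gene-poor windows of the chromosomes held 6.68% of those above, 5.84% of those below and 2.98% of all THSs. Since these sets were chosen by the values of GMC, their median log2 differences, 0.76 and -0.69, are a description only.

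The THSs with the largest differences in these sets were chosen after their values were seen. Among those above, THS_35427 lies between genes on chromosome 3 (log2 difference 1.46), THS_35287 in the pseudogene AT3G29076 (1.43), THS_18950 in a coding exon of AT2G06105 (1.38) and THS_27079 in a coding exon of BGLU17, a beta-glucosidase gene (1.30). THS_13886, in a coding exon of AT1G67870, had the most cutcounts of the 8 largest, with 286, 220 and 209 in GMC against 21.8 to 200.5 (1.33, SE 0.40). None passed, with limma adjusted p from 0.0994 to 0.146. Among those below, THS_19642 lies 26 bp inside the start of Kin3, a protein kinase gene, and held 33.2, 60.7 and 53.0 in GMC against 66.7 to 209 (-1.26, SE 0.23, limma adjusted p = 0.076). THS_07920, 79 bp upstream of NAC13, a NAC transcription factor gene, held 25.9, 43.5 and 39.7 against 50.6 to 199 (-1.22). THS_11244, 1177 bp upstream of GolS2, which encodes a galactinol synthase of the raffinose pathway, held 132, 121 and 90.7 against 159 to 424 (-1.18). At these sites GMC lay outside the range of 13 libraries, but the adjusted p stayed above 0.05.

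The direction of the difference followed the level of a THS in the scaled cutcounts, and this was lost under scalings that align libraries across levels. With THSs sorted by mean scaled cutcounts into 10 classes of equal size, the median log2 difference of GMC from the other states was 0.37 in class 1, the weakest, 0.14 in class 5, -0.08 in class 7 and -0.49 in class 10. In class 1, 87.2% of the THSs had a positive difference, and in class 10, 4.51% had one. With cyclic loess the 10 medians lay between -0.015 and 0.030, and with quantile normalization between -0.073 and 0.057. With a covariate for the share in the most-cut THSs they ran from 0.13 in class 1 to -0.31 in class 10, with equal totals from 0.47 to -0.39 and with equal upper quartiles from 0.53 to -0.33. The other states did not show this size of slope. GC ran from 0.17 to -0.21, Proto from -0.01 to 0.08, M from -0.13 to 0.27 and MMC from -0.33 to 0.36, each against the mean of the 4 states other than itself. Those 5 contrasts share libraries, so they are not independent. Against GC alone, the GMC medians ran from 0.16 to -0.22. Over all THSs the median difference was 0.04, and it was 0.14 when library totals were set equal and 0.20 when upper quartiles were.

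**Figure D3:**
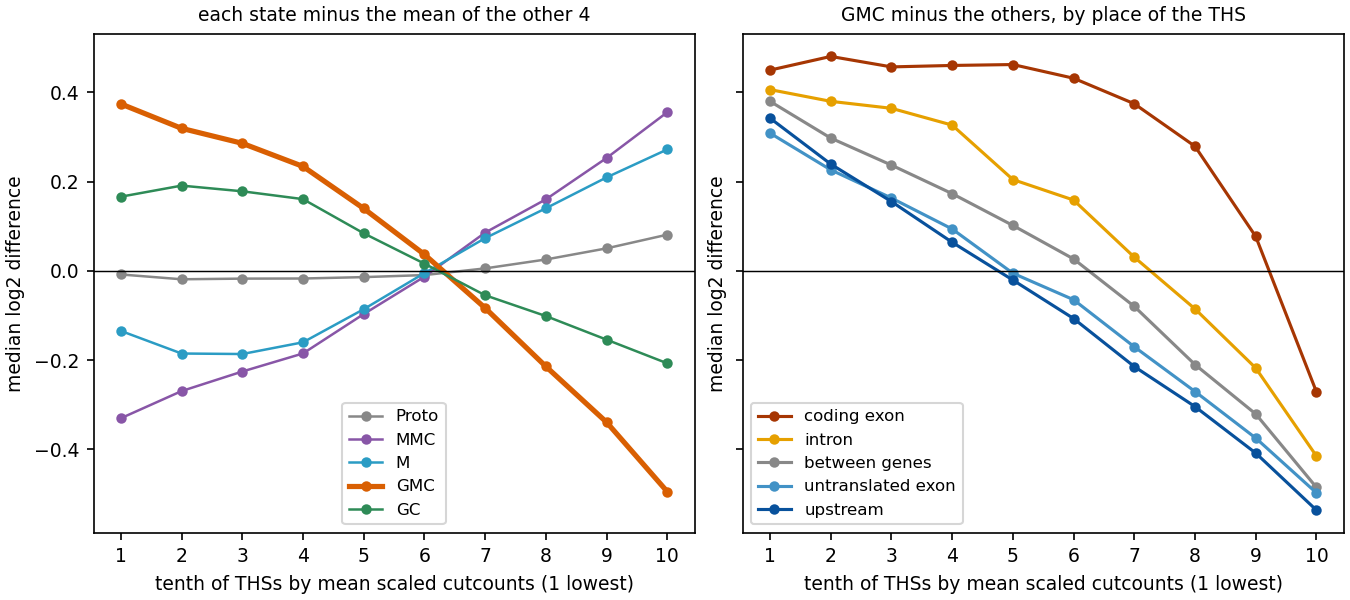
Median log2 difference (y) in 10 classes of THSs by mean scaled cutcounts (x, class 1 the weakest), for each state against the other 4 (left) and for GMC by place in the annotation (right). In these scaled cutcounts the GMC line falls from 0.37 to -0.49, a slope that cyclic loess and quantile normalization remove, and coding exon THSs stay above 0 up to class 9.

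Place in the annotation went along with the difference as well. Coding exon THSs (10315) had a median log2 difference of 0.41. GMC lay above all others at 281 of them (2.72%) and below at 40 (0.388%), beside 1.12% and 1.86% of all THSs. Intron THSs (4092) had a median of 0.23. THSs between genes (25240), a class that includes those in pseudogenes and noncoding genes, had a median of 0.05. That median changed sign to -0.0064 with cyclic loess, -0.024 with quantile normalization and -0.023 with the covariate for the most-cut THSs. Untranslated exon THSs (10866) had a median of -0.10, which changed sign to 0.01 with equal totals and 0.06 with equal upper quartiles. Upstream THSs (14836) had a median of -0.20, with 73 above (0.492%) and 456 below (3.07%). The coding exon median stayed positive, between 0.27 and 0.57, and the upstream median negative, between -0.13 and -0.04, under the 4 other scalings. Within classes of level, the coding exon median was positive in classes 1 to 9, from 0.45 in class 1 to 0.08 in class 9, and -0.27 in class 10. The upstream median was positive in classes 1 to 4 and negative from class 5 on. Against GC alone the medians of the 5 places lay between -0.07 and 0.04.

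Without M replicate 1, 1412 coding exon THSs passed as higher in GMC and 256 as lower, while 193 upstream THSs passed as higher and 3204 as lower. These are 13.7% and 2.48% of coding exon THSs, and 1.30% and 21.6% of upstream THSs, beside 4.33% and 11.9% of all THSs in that fit.

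The share of each library's cutcounts by kind of THS, drawn from the same values, went the same way. The THS with the most cutcounts of all, at a mean of 259689 scaled cutcounts, is a coding exon THS. The coding exon shares given here include it. Coding exon THSs took 19.6%, 17.7% and 17.8% of the cutcounts in GMC replicates 1 to 3, and 8.91% to 18.9% in the others. Upstream THSs took 22.3%, 24.0% and 23.6% in GMC and 22.7% to 33.2% in the others. The 3 GC libraries and M replicate 1 held 16.3% to 18.9% in coding exon and 22.7% to 25.6% in upstream THSs, and MMC replicate 2, with 16.3% and 26.0%, lay beside GC replicate 3. The remaining 8 libraries of Proto, MMC and M had 8.91% to 15.2% in coding exon and 26.6% to 33.2% in upstream THSs. Shares were compared between the 3 GMC and the 13 other libraries by an exact permutation test over 560 assignments, two-sided, where the smallest possible p was 0.00179.

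None of the 6 measures passed after adjustment over the 6. The upstream share differed by -3.68 percentage points (adjusted p = 0.126, exact permutation test), the exon share by 2.94 (adjusted p = 0.126, exact permutation test) and the intron share by 0.846 (adjusted p = 0.126, exact permutation test). The share of the most-cut 10% of THSs differed by -2.73 (adjusted p = 0.126, exact permutation test). The shares between genes (-0.103) and in gene-poor windows (-0.0730) had an adjusted p of 0.813 by the same exact permutation test. A handful of THSs weighed on these shares, as the 10 with the most cutcounts held 13.4% to 14.1% of the cutcounts in GMC and 1.89% to 15.998% in the others. Without those 10, the most-cut 10% of THSs took 32.1%, 34.2% and 33.0% in GMC and 34.3% to 44.4% in the others. The groups then no longer overlapped, GMC being lowest, and the difference was -6.13 percentage points (p = 0.00357, adjusted p = 0.0214, exact permutation test). The lowest of the others was M replicate 1, at 34.3%, next to GMC replicate 2 at 34.2%.

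**Figure D4:**
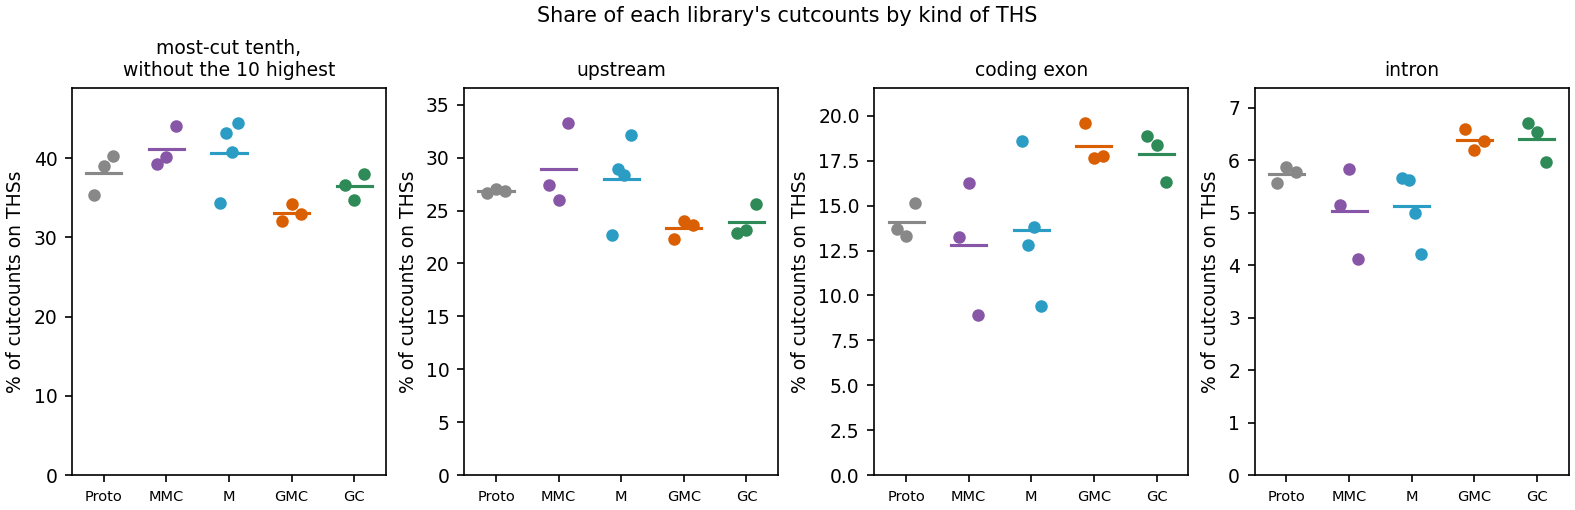
Share of cutcounts on THSs (%, y) in each library, by state, for the most-cut 10% of THSs without the 10 highest, upstream THSs, coding exon THSs and intron THSs, with bars for state means. GMC libraries lie at 32.1% to 34.2% in the first panel, below all others, and overlap the others, GC above all, in the remaining panels.

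Motif words were counted in the same sets. GAGAGAGA, on either strand, occurred in 7.55% of all THSs, in 2.32% of those with GMC above and in 14.0% of those with GMC below. CACGTG occurred in 8.91%, 5.18% and 14.1%, and a GATA word in 50.9%, 40.7% and 62.3%. Longer THSs hold more words, so shares were also taken by length. Among THSs of 200 to 299 bp, GAGAGAGA occurred in 7.39% of all, 3.68% of those above and 10.05% of those below. Among those of 300 to 499 bp, it occurred in 12.8%, 3.30% and 17.1%, and among those of 150 to 199 bp in 3.19%, 1.35% and 8.79%. In the class of 200 to 299 bp, GATA words occurred in 51.2%, 51.6% and 51.1%, and CACGTG in 8.03%, 5.26% and 7.99%. Among THSs of 300 to 499 bp, GATA words occurred in 66.3%, 53.8% and 64.9%, and among those of 150 to 199 bp in 36.3%, 32.5% and 37.4%. For CACGTG the shares were 14.3%, 9.89% and 15.8% at 300 to 499 bp, and 3.86%, 4.29% and 9.89% at 150 to 199 bp. GA repeats were thus less frequent above than below within each of these classes, and GATA words were at about the same share only at 200 to 299 bp. Of the 2 THSs called lower, 0 held GAGAGAGA, 0 held CACGTG and 2 held a GATA word. The sets with GMC above and below also differ in level and place (above), which shares by length do not match. Some shares rest on few THSs. GAGAGAGA occurred in 3 of 91 above at 300 to 499 bp and in 8 of 91 below at 150 to 199 bp. No test was made of these shares.

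THSs near stomatal genes were read from lists, a THS being assigned to a gene when at least 1 bp lay between 1000 bp upstream of its start and its end. Of 252 THSs of all lists outside FAMA, 0 passed an adjusted p of 0.05 with limma in either direction, and 21 were higher (8.33%) and 44 lower (17.5%) at an unadjusted p under 0.05, beside 10.3% and 14.6% of all THSs. GMC lay above all other libraries at 1 of them (0.397%) and below at 7 (2.78%), beside 1.12% and 1.86% of all THSs. Their median log2 difference was -0.03, beside 0.04 for all THSs, and it was positive, at 0.0072 to 0.13, under the 4 other scalings.

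The stomatal bHLH genes other than FAMA had 7 THSs with a median difference of -0.30. At SPCH, which starts the lineage, THS_61260 held 272, 310 and 334 scaled cutcounts in GMC, and 245 to 5588 in the others. The MMC libraries, whose line carries the SPCH promoter, made up the top of that range, and against GC the difference was 0.10 (SE 0.26). At MUTE, THS_29396 held 420, 323 and 354 in GMC and 117 to 2984 in the others, with the M libraries of the MUTE line at the top (-0.21, SE 0.23). At SCRM, the partner of all 3 stomatal bHLH factors, THS_34596 held 116, 138 and 156 in GMC and 129 to 353 in the others (-0.30, SE 0.21). A weaker SCRM site, THS_34598, picked after its values were seen, held 43.1, 46.0 and 48.9 in GMC and 59.0 to 123 in the others (-0.82, SE 0.18, limma adjusted p = 0.0994). GMC lay below all 13 there, and the 3 GC libraries were the next lowest. This THS and THS_61260 of SPCH passed as lower without M replicate 1 and also without MMC replicate 2. They are 28.6% of the 7 THSs, beside 11.9% and 3.75% of all THSs in those fits. The site given for SCRM2 (THS_02933), which overlaps the neighbouring gene AT1G12855, differed by -0.30 (SE 0.21).

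For 15 of the 17 genes of GMC division a THS was found, 41 in all, and CDKB1;1 and CYCD7;1 had none. Their median difference was -0.12, and 0.043 with equal upper quartiles. At an unadjusted p under 0.05, 3 were higher (7.32%) and 6 lower (14.6%), beside 10.3% and 14.6% of all THSs, and 0 passed the adjusted threshold. KRP1, an inhibitor of cyclin-dependent kinases, had the largest difference among the THSs given for this list. THS_21272, across its start, held 446, 511 and 427 scaled cutcounts in GMC and 564 to 1428 in the others (-0.76, SE 0.23, limma adjusted p = 0.104). All GMC libraries lay below all others, the 1 such case in the list (2.44%, beside 1.86% of all THSs). At RBR1, the retinoblastoma protein that holds back the cell cycle, THS_30626 held 282, 282 and 254 in GMC and 262 to 731 in the others (-0.57, SE 0.24). At CYCA2;1, an A2-type cyclin, THS_55850 held 100.9, 111 and 73.3 in GMC and 100.8 to 245 in the others (-0.64, SE 0.21). At MYB88 THS_18323 held 55.4, 75.5 and 54.0 in GMC and 61.1 to 137 in the others (-0.60, SE 0.21). GMC was in the lower part of the range at these 3 genes, with overlap at each. The sites of KRP1 and RBR1 lie in the strongest class of level, whose median difference was -0.49. Over the 30 alternatives KRP1 ran from -0.84 to -0.11 and RBR1 from -0.63 to -0.03.

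The remaining division genes other than E2FB lay nearer to 0. FLP (THS_03303) differed by -0.21, CDKA;1 (THS_36887) by -0.34, CYCA2;2 (THS_52549) by -0.20, CYCA2;4 (THS_17643) by -0.37, CYCD5;1 (THS_49445) by -0.12, SMR4 (THS_50491) by -0.30 and E2FA (THS_24662) by -0.18. CDKB1;2 (THS_25489) differed by 0.01, CYCA2;3 (THS_03646) by 0.09, CYCD3;1 (THS_48331) by 0.27 and E2FB (THS_54926) by 0.68 (SE 0.49). The THSs given for CYCD3;1, E2FA and CYCA2;2 overlap only the neighbouring genes AT4G34150, AT2G36000 and AT5G11310. Without M replicate 1, 4 THSs of this list passed as lower, those of KRP1, RBR1, CYCA2;1 and MYB88 above, and 1 as higher, THS_54927 in a coding exon of E2FB. These are 9.76% and 2.44% of the list, beside 11.9% and 4.33% of all THSs in that fit. Without MMC replicate 2, that of KRP1 passed as lower, 2.44% of the list beside 3.75% of all THSs.

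**Figure D5:**
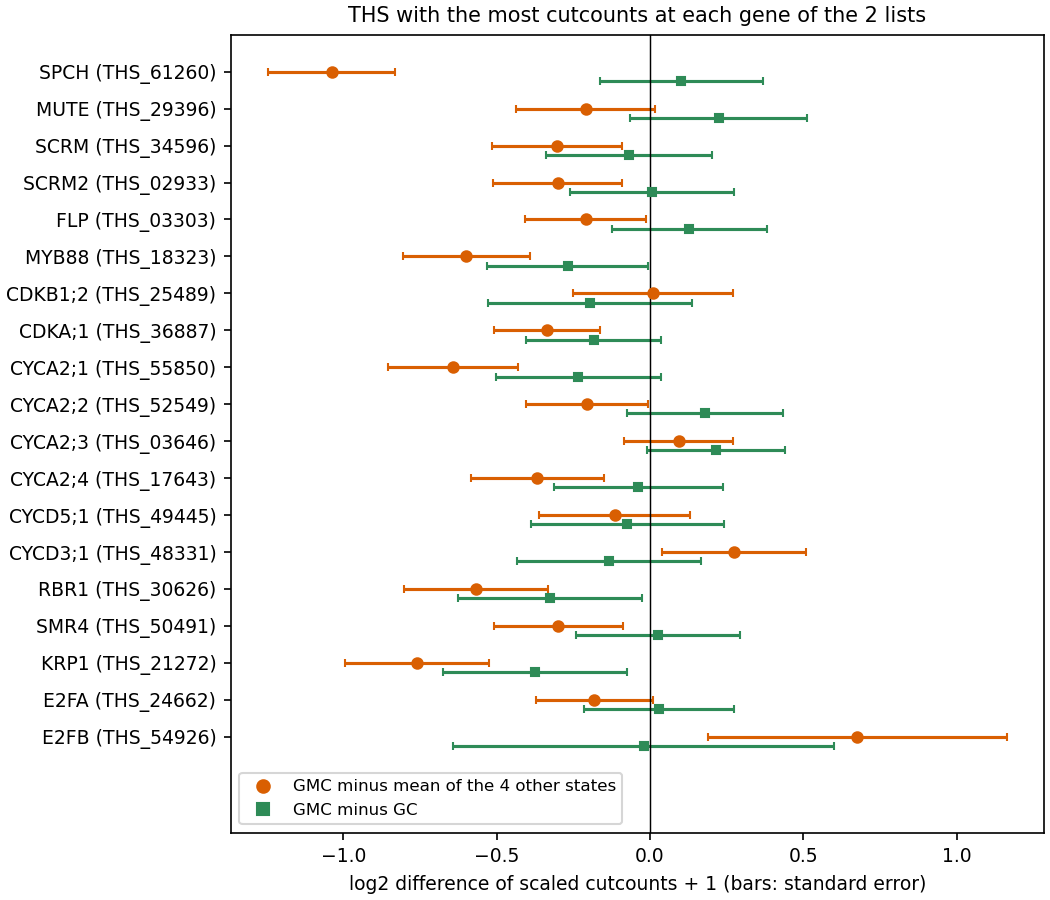
Log2 difference (x, bars are SE) of GMC from the mean of the 4 other states (circles) and from GC (squares) at the THS with the most cutcounts of each bHLH gene other than FAMA and each division gene. SPCH at -1.04 and KRP1 at -0.76 lie farthest to the left, and E2FB at 0.68 farthest to the right with the widest bar.

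Patterning genes, which encode the peptides, receptors and kinases that space stomata, all had a THS, 51 for 16 genes. Their median difference was -0.06, and it changed sign to 0.045 with equal totals and 0.0998 with equal upper quartiles. At an unadjusted p under 0.05, 3 were higher (5.88%) and 12 lower (23.5%), beside 10.3% and 14.6% of all THSs. GMC lay below all others at 2 of them (3.92%, beside 1.86% of all THSs), named after their values were seen. At MKK5, a kinase of the YDA cascade, THS_32971 held 99.7, 126 and 102 in GMC and 131 to 299 in the others (-0.82, SE 0.21). THS_22034, in the gene AT2G26340 beside the receptor gene ERECTA, held 73.9, 99.3 and 97.8 in GMC and 104 to 228 in the others (-0.52, SE 0.20). Without M replicate 1, 10 THSs of the list passed as lower (19.6%) and 1 as higher (1.96%), beside 11.9% and 4.33% of all THSs. Without MMC replicate 2, 7 (13.7%) and 2 (3.92%) did, beside 3.75% and 3.3%. Those lower without M replicate 1 belonged to EPF2, EPFL9, ERECTA, MPK3, MKK4 and MKK5, and the higher one lies in a coding exon of YDA.

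Guard cell function genes had 40 THSs at 11 of 13 genes (SLAC1 and HT1 had none), with a median of -0.08 that turned positive, to between 0.020 and 0.078, under the 4 other scalings. SCAP1, a Dof transcription factor of guard cell maturation, had the 1 list THS with GMC above all others. THS_64663, 603 bp upstream of its start, held 61.5, 64.9 and 57.0 in GMC and 24.9 to 55.2 in the others (0.59, SE 0.20, limma adjusted p = 0.115). At AHA1, a plasma membrane proton pump, THS_20114 held 106, 90.3 and 96.8 in GMC and 120 to 341 in the others (-0.89, SE 0.24). Both were picked after their values were seen and neither passed with all libraries. Both passed without M replicate 1, among 2 higher and 3 lower THSs of the list (5% and 7.5%, beside 4.33% and 11.9% of all THSs), and THS_20114 also passed without MMC replicate 2 and with quantile normalization. The calls of the list in each of these fits include THS_05423 of the GC1 promoter, of which the GC line carries an extra copy. The greening factors GNC, GNL, GLK1 and GLK2 had 11 THSs with a median of 0.15. Of these, 0 were lower and 1 higher (9.09%) at an unadjusted p under 0.05, beside 14.6% and 10.3% of all THSs.

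Markers of other cells that a pull-down from seedlings could hold gave no THS past an adjusted p of 0.05 with all libraries, and the shares of all THSs at an unadjusted p under 0.05 were 10.3% higher and 14.6% lower. Mesophyll genes (32 THSs) had a median of 0.06, 1 higher (3.12%) and 8 lower (25%) at an unadjusted p under 0.05, and a summed level of 3877 to 4009 in GMC against 3848 to 6699 in the others. Root genes (19 THSs) had a median of 0.03, with 5 higher (26.3%) and 2 lower (10.53%), and sums of 1302 to 1370 against 1328 to 1649. Vascular genes (12 THSs) had a median of 0.11, with 1 higher (8.33%) and 2 lower (16.7%), and sums of 807 to 836 against 705 to 990. The GMC sums thus lay in the lower part of the range for mesophyll and root genes and near its middle for vascular genes. Root sums in GMC reached below all others. Strong THSs weigh most in such sums, and over all THSs the strongest class had a median difference of -0.49. Trichome genes (10 THSs) summed to 611 to 693 in GMC against 616 to 931, and epidermis genes (18 THSs) to 1324 to 1386 against 1334 to 2250. At the epidermal regulator ATML1, GMC lay below all others in THS_45046 (188, 171 and 208 against 215 to 858, -0.93, SE 0.21), and the Proto libraries carry that promoter as a transgene. Myrosin idioblasts, which also depend on FAMA, were covered by 1 THS in a coding exon of TGG2, a myrosinase gene, and TGG1 had none. It held 123, 108 and 98.8 in GMC and 21.5 to 98.8 in the others (0.76, SE 0.28, limma adjusted p = 0.131). PDF2 and GL1 had no THS. Without M replicate 1, 7 mesophyll THSs (21.9%), 2 root, 2 vascular, 2 epidermis and 1 trichome THSs passed as lower and 1 root and 1 vascular THS as higher, beside 11.9% and 4.33% of all THSs. The THS of TGG2 passed as higher without MMC replicate 2 and with quantile normalization. Accessibility at a gene does not measure its transcript, and the part of other cells in the results was not tested.

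Control genes also held THSs at which GMC stood at the edge of the other libraries or beyond it. Of their 10 THSs, 2 were higher (20%) and 2 lower (20%) at an unadjusted p under 0.05, beside 10.3% and 14.6% of all THSs. Without M replicate 1, 2 passed as higher (20%) and 2 as lower (20%), beside 4.33% and 11.9% of all THSs. Without MMC replicate 2, 2 (20%) and 1 (10%) did, beside 3.3% and 3.75%. The higher ones in both fits were THS_40397 of RANGAP1, described below, and THS_32378 of ACT2. The ACT2 promoter drives the BirA transgene in every line, and what part that transgene had in THS_32378 was not tested. At PP2AA3, a phosphatase subunit gene used as a reference, THS_03053 held 55.4, 66.5 and 66.2 scaled cutcounts in GMC and 66.7 to 177 in the others, so GMC lay below all (-0.63, SE 0.21, limma adjusted p = 0.114). At RANGAP1, whose WPP domain is part of the nuclear tag, the coding exon THS_40397 held 714, 709 and 604 in GMC. It held 152 to 195 in Proto, 303 to 869 in MMC, 220 to 599 in M and 347 to 390 in GC (log2 difference 0.996, SE 0.26, limma adjusted p = 0.0994). GMC was high there together with MMC replicates 1 and 2 and M replicate 1, and the upstream THS_40396 differed by -0.61. How many cutcounts in that exon came from the tag transgene was not tested.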

How the data were processed

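Chromatin accessibility was measured by ATAC-seq on nuclei captured by INTACT, in 16 libraries of 5 states. The authors aligned reads with bowtie2 (build TAIR10), dropped those in centromeric regions, called peaks with MACS2, merged them into a list of THSs, counted cut positions on each THS and divided the counts by DESeq2 size factors. The deposited signal values are these scaled cutcounts. Each value was a whole multiple of its library's step (100% of values, tolerance 0.01 of a step). Undoing this scaling returned 3412226 to 13596509 cutcounts per library. Arabidopsis libraries were grouped by their labels, and 1 value column that matches no sample was not used.

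After adding a pseudocount of 1, log2 values entered limma 3.58.1 under R 4.3.3 (lmFit on 5 state means, eBayes with trend and robust), so differences of weak THSs are understated. The contrasts were GMC against the mean of the 4 other state means and GMC against GC, with two-sided p-values adjusted by the Benjamini-Hochberg method at 0.05. The step was tested on simulated data. Places came from the RefSeq annotation of TAIR10, by the midpoint of a THS, and the upstream class (400 bp before a start) took precedence. Only protein-coding genes were used for places, so the class between genes includes THSs in pseudogenes and noncoding genes. Gene-poor windows were the 41 windows of 500000 bp with a gene share under 30%. Library shares were compared by exact permutation tests, using scipy 1.17.1 and numpy 2.4.6 under Python 3.11.15, with pandas 2.3.3 and matplotlib 3.10.9.

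Named THSs were those upstream of FAMA, those past the threshold with all GMC libraries on 1 side (up to 12 in each direction, or the 6 with the smallest p where none passed), and the THS with the most cutcounts at each bHLH and division gene. Others are said to be chosen after their values were seen. The members and the gene lists were chosen with earlier results of these data known. Alternatives were other scalings, pseudocounts, a filter, other models and thresholds, covariates, the replicate number as a block, each library left out in turn, a 3000 bp list window and a 150 bp motif window. A test on the recovered cutcounts with edgeR 4.0.16 was added after seeing the data. The covariate for the share of reads in peaks used the study's own listing, which did not match 4 of the libraries. Tests by the authors were not repeated.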

Additional observations from a re-analysis of the deposited data

How the results depend on the processing

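THSs higher and lower in GMC than in the 4 other states, 0 and 2 as reported, numbered 1654 and 2194 with quantile normalization, 9645 and 12278 with library quality weights, and 0 to 2832 and 1 to 7783 when 1 library was left out, the highest without M replicate 1. With equal upper quartiles the lower THSs numbered 8 and with cyclic loess 6. They numbered 1 without trend and robust, with a covariate for the share in the most-cut THSs, with the 13 other libraries as 1 group and at a threshold of 0.01. Other pseudocounts, equal totals, a filter at a mean of 20, edgeR and the covariate for the share of reads in peaks gave 0 and 2. THS_21012 passed in all of these. Against GC, 7 were higher and 12 lower with library quality weights, and 7 and 67 with only GMC and GC in the fit. The cause of these changes was not tested.

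Whether the replicate numbers pair the libraries is not given by the labels. Deviations of same-numbered libraries correlated at -0.22 to 0.40 over 30 pairs, 9 of them above 0.1, and 1 of 3 GMC libraries correlated best with its own number. Pairs of libraries with unlike numbers from different states ran from -0.67 to 0.63. The replicate block gave 503 higher and 2775 lower THSs and left the counts against GC at 0 and 3.

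The share in the most-cut 10% of THSs differed by -3.19 percentage points without Proto replicate 1 (adjusted p = 0.0132, exact permutation test), and by -3.19 to -2.44 over all libraries left out in turn. Without the 10 most-cut THSs it differed by -6.13 (adjusted p = 0.0214, exact permutation test), the exon share by 2.504 (adjusted p = 0.0464, exact permutation test) and the intron share by 0.689 (adjusted p = 0.0375, exact permutation test). The share between genes, -0.103 as reported, turned to 0.00957 without Proto replicate 1, 0.00370 without GMC replicate 1 and 0.418 without those 10 THSs, and ran from -0.238 to 0.00957 over libraries left out. The gene-poor share turned to 0.0130 without the 10. Against the mean of the 4 other state means, the share in the most-cut 10% differed by -2.62 (adjusted p = 0.142, permutation test with 100000 permutations). In 150 bp around the midpoint, 1 of the 2 THSs called lower held a GATA word.

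Some named THSs that passed no test changed sign on the log2 scale. With cyclic loess THS_29396 stood at 0.36, THS_34596 at 0.055, THS_17643 at 0.094, THS_50491 at 0.15, THS_24662 at 0.045, THS_21013 at 0.22 and THS_25489 at -0.27. With quantile normalization THS_29396 stood at 0.35, THS_17643 at 0.065, THS_50491 at 0.12, THS_21013 at 0.18 and THS_25489 at -0.28. With equal upper quartiles THS_49445 stood at 0.043, THS_21013 at 0.13 and THS_36024 at 0.00822, and with equal totals THS_21013 at 0.078. With the covariate for reads in peaks THS_02933 stood at 0.016, THS_49445 at 0.039, THS_21013 at 0.00898, THS_25489 at -0.072 and THS_54926 at -0.045. THS_25489, the site of CDKB1;2, stood at -0.23 with the covariate for the most-cut THSs and -0.015 with the replicate block. Over libraries left out it ran from -0.14 to 0.15, THS_49445 from -0.32 to 0.28, THS_21013 from -0.17 to 0.13 and THS_36024 from -0.29 to 0.078, each extreme without a GMC library. Whether deeper or further libraries would change the counts of calls was not tested.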
